A study of Mus musculus with 2 samples.

Results

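The cells described here are those of a mouse bone marrow sort that carried at least 2 UMIs (unique molecular identifiers, each counting 1 captured RNA molecule) of Flt3, no UMI of Procr, and fewer than 10 UMIs per 10000 of Mpo, Elane and Ctsg together. They were chosen from the same counts that are described below, so their Flt3, Procr, Mpo, Elane and Ctsg levels are no finding. This Flt3 gate held 149 of 10769 kept cells in the library labelled RUNX1 KO and 98 of 9472 kept cells in the library labelled RUNX1 WT, 247 of 20241 in all. A barcode was kept with no fewer than 500 detected genes and no more than 10% mitochondrial UMIs.

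Both libraries were single-cell RNA-seq libraries made from about 10,000 sorted LSK CD150+ cells each, which lack lineage markers and carry Sca-1, Kit and the receptor CD150. The mouse model was Runx1 F/F with Mx1-Cre, in which floxed Runx1, the gene of a DNA-binding transcription factor, is cut by a recombinase whose promoter answers to interferon in blood cells and in other tissues. The comparison asked which cells the sort contains with each genotype, RUNX1 KO and RUNX1 WT. The alleles of the WT mice, any inducer, the age of the mice and how many were pooled are not given in the sources used here. With a single library for each genotype no difference between them could be checked against replicates or tested, and the 95% intervals are exact ones that cover counting error and nothing else.

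FLT3 is a receptor tyrosine kinase that binds FLT3 ligand and signals through the RAS, PI3K and STAT5 pathways. In mouse marrow it is known from multipotent progenitors that have lost long-term self-renewal, from the lymphoid-primed cells among them that carry Dntt and Il7r, and from the progenitors of dendritic cells, which depend on FLT3 ligand. PROCR marks stem cells, and MPO, ELANE and CTSG are granule proteins of granulocyte and monocyte progenitors.

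The gate made up 1.38% of kept cells in the KO-labelled library (interval 1.17 to 1.62) and 1.03% in the WT library (0.841 to 1.26). Its cells held 1573211 and 1178498 UMIs in sum in the KO-labelled and the WT library, with a median of 9056 and 9915.5 UMIs per cell. The other kept cells had medians of 9314 and 9882 UMIs, so depth inside the gate was close to that outside it. The 2 libraries shared 33 barcodes among kept cells and 0 among gate cells. By Xist and Y-linked genes, the KO-labelled gate held 117 female, 14 male and 18 unassigned cells, whereas the WT gate held 0 female, 72 male and 26 unassigned cells. Sex and genotype label therefore cannot be told apart over all gate cells. Male-cell values, on 14 KO-labelled and 72 WT cells, are given beside the list medians and some of the leading genes.

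Runx1 itself was higher in the library labelled KO. Inside the gate it stood at 197 CPM (UMIs of the gene per 1000000 UMIs of the summed cells) in the KO-labelled library, with a UMI in 120 of 149 cells, and at 83.2 CPM in the WT library, with a UMI in 47 of 98 cells. The ratio was 2.37 (1.88 to 3.01), and 2.50 among male cells. In the other kept cells the ratio was 1.88. No label names the deleted exons, and a 3′ tag that lies outside them checks nothing about the genotype. The targeted gene was thus not lower under the KO label, and every direction below is that of the library so labelled.

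Promoter sequences cover 250 bases before to 50 after the annotated start (RefSeq, GRCm38.p6) and are written 5′ to 3′ on the gene's strand. They are shown for the gene that defines the gate and the named gene with the largest excess inside it over the other cells. The last is the named gene with the highest ratio of KO-labelled over WT. Capitals mark TGTGGT or its reverse complement ACCACA, the core letters of the RUNX motif, searched on both strands. Of 32851 promoters of this length, 16.8% held it.
Flt3, chr5:147400440-147400739, minus strand: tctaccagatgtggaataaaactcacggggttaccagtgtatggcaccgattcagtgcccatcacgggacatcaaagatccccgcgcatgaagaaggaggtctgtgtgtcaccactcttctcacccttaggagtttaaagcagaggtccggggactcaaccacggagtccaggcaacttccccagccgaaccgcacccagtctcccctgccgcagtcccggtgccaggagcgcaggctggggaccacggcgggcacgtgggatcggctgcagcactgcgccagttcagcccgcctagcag
Dntt, chr19:41029025-41029324, plus strand: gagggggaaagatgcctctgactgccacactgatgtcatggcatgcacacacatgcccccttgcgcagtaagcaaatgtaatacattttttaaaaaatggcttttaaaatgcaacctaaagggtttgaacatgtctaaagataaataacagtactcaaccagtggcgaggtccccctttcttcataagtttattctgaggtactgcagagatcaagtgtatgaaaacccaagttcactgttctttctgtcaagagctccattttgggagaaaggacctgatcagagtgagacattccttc
Cpa3, chr3:20242132-20242431, minus strand: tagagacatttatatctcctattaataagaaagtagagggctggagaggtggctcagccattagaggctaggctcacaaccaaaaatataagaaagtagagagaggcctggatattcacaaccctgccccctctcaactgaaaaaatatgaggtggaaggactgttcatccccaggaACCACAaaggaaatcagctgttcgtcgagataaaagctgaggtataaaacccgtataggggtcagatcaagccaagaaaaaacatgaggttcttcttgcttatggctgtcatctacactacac
The letters occurred in the Cpa3 window and in neither of the other two. Among the 10 genes with the highest ratio of KO-labelled over WT, 9 were in the promoter table and 1 held them. Of the 10 with the lowest ratio, 8 were in the table and 2 held them. Counted by gene in the same way, 18.9% of 27025 genes held them in any listed promoter. A match is a string of letters and no measured binding.

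Flt3 was sparse throughout the sort. No Flt3 UMI was seen in 9724 KO-labelled and 8804 WT kept cells, and the highest count in any cell was 7 and 8 UMIs. Just outside the gate, 562 KO-labelled and 371 WT cells met every other condition with 1 Flt3 UMI. Just inside it, 117 KO-labelled and 76 WT cells had exactly 2, and 32 and 22 cells had 3 or more. A further 106 KO-labelled and 52 WT cells had at least 2 Flt3 UMIs but were left out, 42 and 9 of them for a Procr UMI alone and 61 and 39 for the granule genes alone. The granule genes reached 9.58 and 9.96 UMIs per 10000 in the highest gate cells and began at 10.6 and 12.4 in the lowest cells left out, while 92 of 149 and 55 of 98 gate cells had 0.

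To compare shares at equal depth, each cell was thinned at random to 3000 UMIs. Before thinning, 90.3% of KO-labelled and 92.9% of WT kept cells had no Flt3 UMI. Among cells with at least 3000 UMIs, a thinned Flt3 UMI was present in 413 of 10678 KO-labelled cells (3.87%) and 228 of 9317 WT cells (2.45%). With the other conditions of the gate these were 290 (2.72%, interval 2.42 to 3.04) and 162 cells (1.74%, 1.48 to 2.03). Those other conditions were taken from the unthinned counts, so only the Flt3 condition is at equal depth there. Cells with high erythroid genes, which should lack Flt3, had a thinned Flt3 UMI in 2 of 1035 KO-labelled cells (0.193%) and 2 of 980 WT cells (0.204%), at median depths of 11715 and 14421.5 UMIs against 9366 and 9979 in all cells thinned. The Flt3 UMIs of the sort were thus well above that level in both libraries, and the share was larger in the KO-labelled library before and after thinning.

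The gate did not hold a single kind of cell. A group of 24 of the 149 KO-labelled gate cells (16.1%, interval 10.6 to 23.0) and 30 of the 98 WT gate cells (30.6%, 21.7 to 40.7) had at least 10 Cd74 UMIs per 10000, and these are called Cd74-rich. CD74 is the chaperone of MHC class II, the molecules that present antigen. The limit of 10 was chosen after the values were seen, and 6 KO-labelled and 4 WT gate cells lay between 5 and 20. The Cd74-poor cells reached at most 9.72 and 5.71 UMIs per 10000, and the Cd74-rich cells began at 13.9 and 13.4, with medians of 97.2 and 133. Among the other kept cells 146 of 10620 (1.37%) in the KO-labelled library and 263 of 9374 (2.81%) in the WT library were Cd74-rich.

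**Figure D1:**
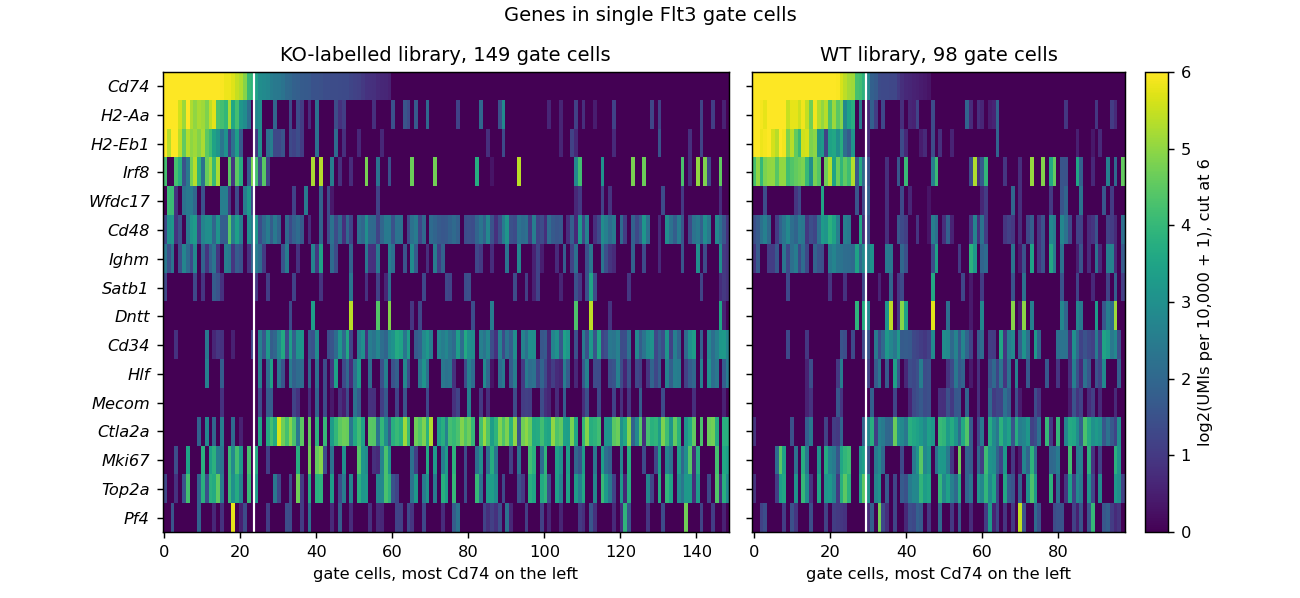
Each column is 1 gate cell, ordered by Cd74 from left to right, and each row a gene, coloured by log2(UMIs per 10000 + 1). The white line parts the 24 KO-labelled and 30 WT Cd74-rich cells from the rest. H2-Aa and H2-Eb1 stand mostly left of the line, Cd34, Hlf, Ctla2a and nearly all Dntt right of it. Irf8 lies on both sides, with 330 UMIs left and 427 right of the line in KO-labelled cells, and 620 and 215 in WT cells.

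The Cd74-rich cells carried the class II chain gene H2-Aa in 23 of 24 KO-labelled and 28 of 30 WT cells, and the class II activator Ciita in 16 and 22. Irf8, a transcription factor of dendritic cell and monocyte development, had a UMI in 19 of 24 and 29 of 30, at 1391 and 2111 CPM. Id2 and Batf3, transcription factors of conventional dendritic cells, had a UMI in 19 and 15 KO-labelled cells and in 26 and 23 WT cells. Cd34, the progenitor surface gene, had a UMI in only 7 of 24 and 6 of 30, and Hlf, a transcription factor of stem and early progenitor cells, in 2 and 4. Cd48 had a UMI in 22 and 26, and after thinning in 83.3% and 63.3%, against 29.9% and 14.4% of erythroid cells. No UMI of the B cell gene Cd79a was found in them in either library. The IgM heavy chain gene Ighm, however, had a UMI in 20 of 24 and 25 of 30. It stood at 215 and 266 CPM there, against 113 and 159 CPM in the other gate cells. The label of multipotent progenitors thus did not match the genes of these cells, and they are called by their leading gene.

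The Cd74-poor cells, 125 in the KO-labelled and 68 in the WT library, were those with most Cd34 and Hlf. After thinning, Cd34 had a UMI in 63.7% and 45.6% of them, against 2.80% and 3.67% of erythroid cells, and Hlf in 50.8% and 23.5%, against 2.32% and 3.06%. Among all the other kept cells Cd34 had a thinned UMI in 32.6% and 22.4%, and Hlf in 18.5% and 20.5%. The WT share for Hlf (interval 14.1 to 35.4) was thus near that of the other WT cells. Kit did not set them apart, with 45.2% and 33.8% against 32.2% and 34.1% of erythroid cells. Unthinned, Cd34 had a UMI in 109 KO-labelled and 55 WT Cd74-poor cells, Hlf in 86 and 40, and Kit in 93 and 51. Dntt, the terminal transferase of lymphoid cells, had a UMI in 14 KO-labelled and 23 WT cells of this kind and in 0 and 2 Cd74-rich cells. Hlf and Dntt occurred together in 8 KO-labelled and 10 WT gate cells. Siglech, a surface gene of plasmacytoid dendritic cells, had a UMI in 8 and 6 gate cells. The Cd74-poor cells were mixed as well. At least 10 Irf8 UMIs per 10000 were found in 16 KO-labelled and 10 WT of them, most without a UMI of Cd34 or Hlf. The label of multipotent progenitors did not match the genes of most of these either.

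The receptor used for the sort was weak in the gate. Slamf1, which encodes CD150, had a UMI in 12 of 149 KO-labelled gate cells and 6 of 98 WT gate cells, at 10.2 and 6.79 CPM, against 28.8 and 17.6 CPM in the other kept cells. Kit stood at 160 and 154 CPM. Ly6a, a gene of the Sca-1 antigen, had a UMI in 74 and 22 gate cells, at 109 and 33.9 CPM. Neither Cd3e nor Trac of T cells had any UMI in the gate, Gp6 of platelets had none either, and Cd79a was confined to 1 WT gate cell, which held all 16 of its UMIs there.

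Set against the other kept cells of the same library, 164 of 5851 genes (2.80%) were at least 2-fold higher in the gate in both libraries and 48 (0.820%) at least 2-fold lower, among genes at 20 CPM or more in the gate or in the other cells of each library. The cells were chosen from these counts, so this is a description and no test. Dntt stood furthest apart of the genes named. It had 158 CPM in KO-labelled gate cells against 1.12 CPM in the other KO-labelled cells, and 271 CPM in WT gate cells against 2.76 CPM in the other WT cells, a 141-fold and a 98.0-fold excess. The gate held 249 of the 381 Dntt UMIs of the KO-labelled library (65.4%) and 319 of the 627 of the WT library (50.9%), with 1.32% and 1.05% of all UMIs.

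Several of the next genes, ranked by the smaller of the 2 excesses, serve antigen presentation or dendritic cells. Cd74 had 1700.3 CPM in the KO-labelled gate against 90.1 outside it, and 3522 CPM in the WT gate against 149 outside. The Cd74-rich cells held 96.9% and 99.3% of its gate UMIs, which follows from their definition and is no finding. H2-Aa was 13.3-fold and 21.4-fold higher, Plbd1 16.9-fold and 25.6-fold, Batf3 13.5-fold and 17.7-fold, and Id2 14.3-fold and 18.5-fold. Slamf7, a receptor of immune cells, was 15.7-fold and 18.1-fold higher, Jaml, an adhesion gene, 14.5-fold and 24.2-fold, and March1, a ubiquitin ligase that removes class II from the surface, 15.2-fold and 21.4-fold. Cd7, a surface gene of lymphoid cells, had 35.6 and 44.1 CPM in the gate, 20.2-fold and 30.2-fold above the other cells, and stood at 29.9 and 53.1 CPM in the Cd74-poor cells. Without the Cd74-rich cells, 83 genes were at least 2-fold higher in both libraries, in place of 164.

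**Figure D2:**
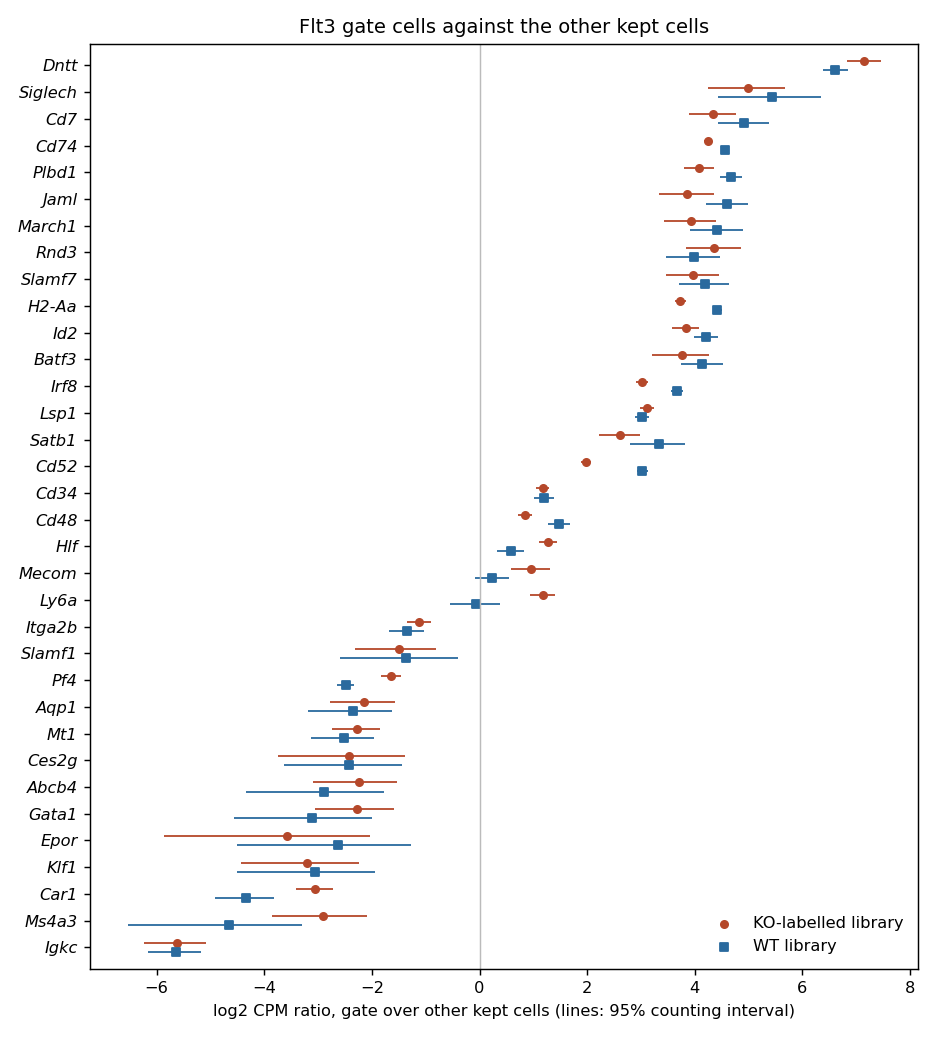
Dots give the log2 CPM ratio of gate over other kept cells, KO-labelled above WT in each row, with 95% counting intervals. Dntt, at 141-fold and 98.0-fold, lies furthest right and Igkc, at 0.0203 and 0.02 times the level outside, furthest left.

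Erythroid and megakaryocyte genes were low in the gate. Of 13 erythroid list members at 20 CPM, 13 were lower in the gate in both libraries and 10 at least 2-fold, beside 39.7% and 0.820% of all genes. Klf1, the erythroid transcription factor, stood at 5.09 CPM in the gate of either library, against 47.1 and 42.5 CPM outside it. Gata1 had 10.8 and 5.09 CPM against 52.4 and 44.1, and the erythropoietin receptor Epor 1.91 and 3.39 CPM against 22.7 and 21.1. Of 15 megakaryocyte members, 14 were lower in both libraries and 6 at least 2-fold, set against the same shares. Pf4, a platelet chemokine, had 156 and 267 CPM in the gate against 490 and 1496 CPM outside it, and its highest single gate cell held 46.3% and 35.9% of its gate UMIs. Igkc, an immunoglobulin chain, was at 17.2 and 29.7 CPM in the gate against 847 and 1485 CPM outside. No T and NK cell or neutrophil granule gene reached 20 CPM in the gate. The shares of cells with other cells' genes were small: 2 KO-labelled and 1 WT gate cell passed the erythroid limit, and 1 and 0 the megakaryocyte limit.

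Lymphoid and multipotent genes were higher in the gate. Of 19 members of the lymphoid priming list at 20 CPM, 15 were higher in the gate in both libraries, 6 of them at least 2-fold, and 1 was lower, beside 35.6% of all genes higher and 2.80% at least 2-fold higher. Their median log2 ratio was 0.98 in the KO-labelled and 0.81 in the WT library, beside 0.00 and -0.04 over all genes. Satb1, a chromatin organiser of lymphoid cells, was 6.15-fold and 10.0-fold higher. Notch1, the receptor that directs T cell fate, was 6.07-fold and 3.99-fold higher. Il7r, the interleukin 7 receptor of lymphoid progenitors, was found in 5 gate cells of each library, and 56.5% of its 23 KO-labelled UMIs came from 1 cell. Of 19 multipotent progenitor members, 13 were higher in both libraries and 2 lower, with Cd34 at 2.26-fold and 2.29-fold and Cd48 at 1.80-fold and 2.79-fold. The Cd74-rich cells added to the Cd48 excess, with 544 and 381 CPM against 267 and 97.2 CPM in Cd74-poor cells. Cd34 went the other way, with 46.4 and 34.1 CPM in Cd74-rich and 403 and 269 CPM in Cd74-poor cells. Stem cell members were mixed, 3 of 13 higher in both and 6 lower. Hlf was 2.42-fold and 1.49-fold higher, whereas Gata2 had 0.603 and 0.388 times the level outside. After thinning to 3000 UMIs, Hlf had a UMI in 43.2% of KO-labelled gate cells against 18.5% of the other kept cells. In the WT library these were 17.3% (interval 10.4 to 26.3) and 20.5%, so no WT excess was seen by that measure.

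The neighbouring cells with at least 2 Flt3 UMIs differed from the gate in these genes. The cells left out for Procr, 42 KO-labelled and 9 WT, had more Hlf, 261 and 243 CPM against 177 and 119 CPM in the gate, and only 1.81 and 49.9 CPM of Dntt. They had 0 and 12.5 CPM of Irf8. Their sums were 551575 and 160272 UMIs, so these Dntt and Irf8 values rest on few UMIs. The cells left out for granule genes, 61 and 39, had 41.7 and 36.6 CPM of Hlf, 16.3 and 119 CPM of Dntt, and 436 and 409 CPM of Irf8, with 83.4 and 15.9 CPM of Cd74. Their Irf8 level was thus of the order of the gate's, at far less Cd74. Inside it, 16 KO-labelled and 10 WT Cd74-poor cells also had at least 10 Irf8 UMIs per 10000.

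Levels differed with the number of Flt3 UMIs per cell. In cells that met the other conditions with 0, 1, 2, and 3 or more Flt3 UMIs, Irf8 stood at 20.5, 143, 438 and 613 CPM in the KO-labelled library and at 26.3, 205, 564 and 1197 CPM in the WT library. Dntt stood at 0.688, 1.55, 150 and 185 CPM in the KO-labelled library and at 0.671, 24.1, 254 and 326 CPM in the WT library. At 1 Flt3 UMI the 562 KO-labelled cells held 9 Dntt UMIs in sum and the 371 WT cells 111. At 3 or more, 72 KO-labelled and 88 WT Dntt UMIs came from few of the 32 and 22 cells. Cd34 was near its gate level from 1 Flt3 UMI on, at 119, 339, 343 and 367 CPM in the KO-labelled library and at 73.6, 170, 222 and 170 CPM in the WT library. Cd74-rich cells made up 1.04%, 5.34%, 17.9% and 9.38% of KO-labelled cells and 2.07%, 10.8%, 26.3% and 45.5% of WT cells. The last group held 32 and 22 cells, with a higher median depth in the KO-labelled library, 11663.5 UMIs against 8482 at 2 Flt3 UMIs.

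**Figure D3:**
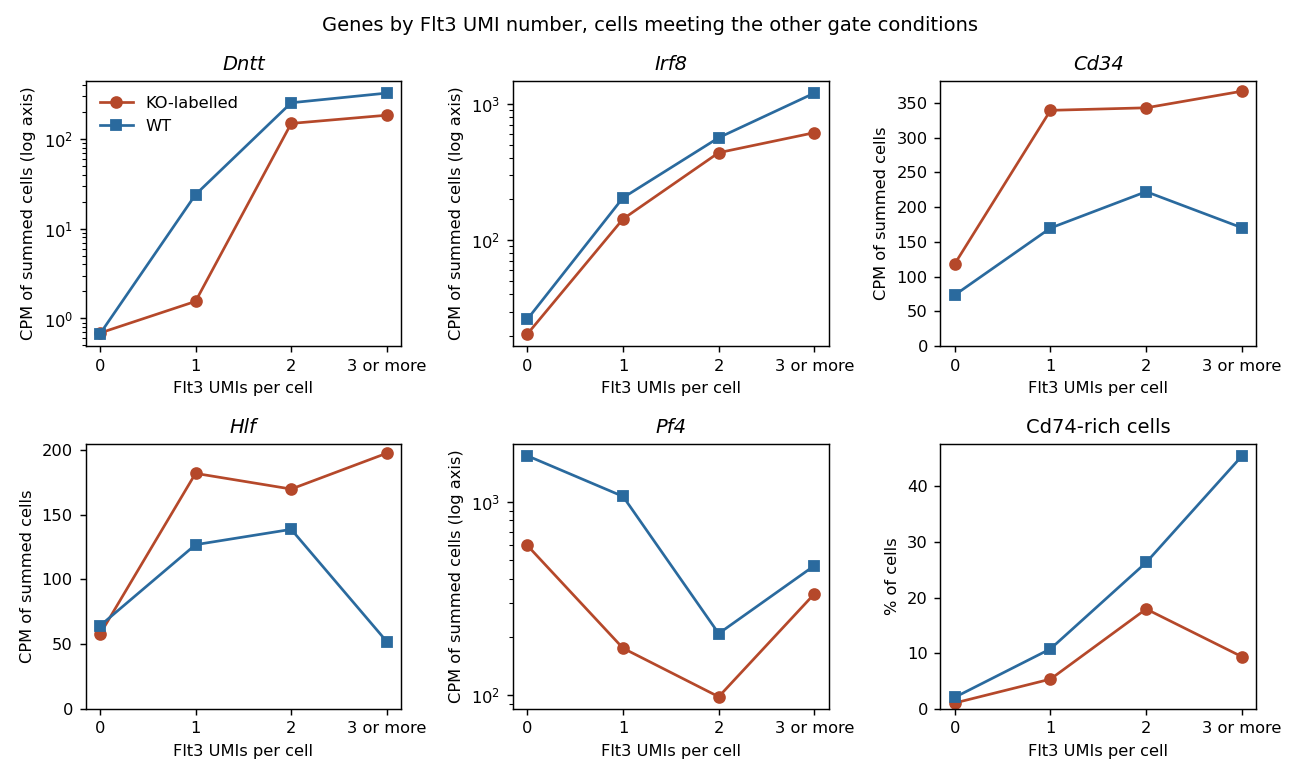
Points give summed CPM, or in the last panel the percentage of Cd74-rich cells, against the number of Flt3 UMIs per cell for cells meeting the other gate conditions. Irf8 and Dntt climb with Flt3 in both libraries, Dntt on the UMIs of few cells. Cd74-rich cells make up 17.9% of KO-labelled and 26.3% of WT cells at 2 Flt3 UMIs, and 9.38% and 45.5% at 3 or more.

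Between the libraries, 254 of 6337 genes that reached 20 CPM in a gate sum (4.01%) differed at least 2-fold inside the gate, 121 higher (1.91%) and 133 lower (2.10%) in the KO-labelled library. Of all 6337, 45.8% were higher and 54.2% lower, with a median log2 ratio of -0.03. The list counts below stand beside these shares. In the Cd74-poor cells alone 158 of 6396 genes were at least 2-fold higher (2.47%) and 173 lower (2.70%). In the far larger sums of the other kept cells, 53 of 5896 genes were at least 2-fold higher (0.899%) and 36 lower (0.611%). Of the 121 genes higher inside the gate, 80 also reached 20 CPM outside it, where 76 had the same direction and 22 were again 2-fold apart. Of the 133 lower genes 63 reached 20 CPM outside, 61 with the same direction and 12 at 2-fold.

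Cpa3, a carboxypeptidase of mast cells and their progenitors, had the highest ratio of the genes named. It stood at 183 CPM in the KO-labelled gate, with UMIs in 72 of 149 cells, and at 11.0 CPM in the WT gate, with UMIs in 9 of 98 cells, a ratio of 16.6 (9.55 to 31.5). The ratio was 14.5 in Cd74-poor cells, 20.6 among male cells and 3.50 in the other kept cells, where the levels were 164 and 46.8 CPM. Other mast cell and basophil genes were near 0. Fcer1a and Prss34 had 0 UMIs in the KO-labelled gate and 5 and 1 in the WT gate, and Ms4a2 had 6 and 0. Gata2, a factor of stem and mast cells and the other list member at 20 CPM, stood at 98.5 and 64.5 CPM.

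Hmga2, a chromatin protein known for growth of fetal stem cells in mice, followed with 55.9 CPM in 47 KO-labelled cells and 5.09 CPM in 4 WT cells, a ratio of 11.0 (4.85 to 30.7). It was 9.60 in Cd74-poor cells and 5.85 outside the gate, and 7.30 among male cells, on 5 UMIs in each library. Lin28b, Igf2bp1, Igf2 and H19, other genes of fetal growth, had no UMI in the gate of either library.

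Ccl6, a chemokine, had 50.9 and 6.79 CPM in KO-labelled and WT gate cells, a ratio of 7.49 (3.62 to 17.9) against 1.40 outside the gate. F13a1, a coagulation factor subunit of monocytes and megakaryocytes, had a ratio of 6.88, but 81.8% of its 11 WT UMIs came from 1 cell. Tjp1 (6.21), Phc1 (5.99), Clec2i (5.37), Cd209a (4.68), Fbp1 (4.62) and Gem (4.31) had the next highest ratios. TJP1 is a tight junction protein, PHC1 a Polycomb subunit, FBP1 an enzyme of gluconeogenesis and GEM a small GTPase. Phc1 had a ratio of 0.743 in the other kept cells, the reverse of its direction inside the gate, on 32 and 4 gate UMIs. It was 0.977 with the gate widened to 1 Flt3 UMI and 0.991 after thinning.

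**Figure D4:**
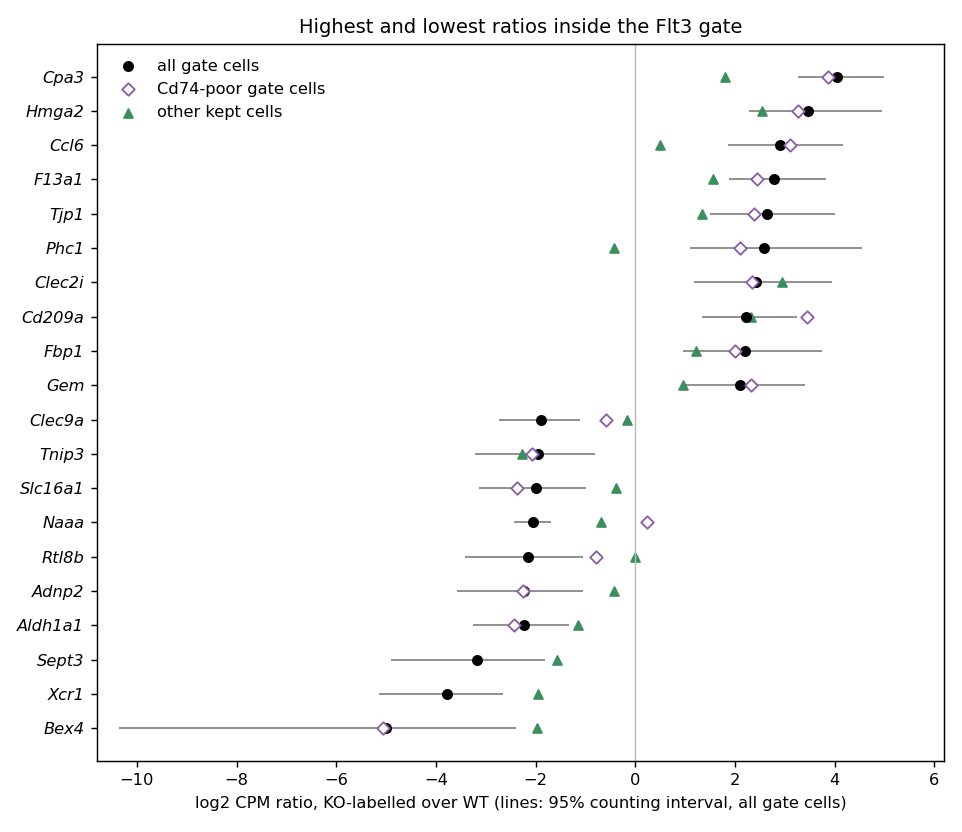
For the 10 highest and 10 lowest genes, the log2 CPM ratio of KO-labelled over WT is shown for all gate cells (black, with 95% counting interval), Cd74-poor gate cells (diamonds, where both libraries had UMIs) and other kept cells (triangles). Cpa3 and Hmga2 lie to the right in each, at 16.6 and 11.0 in all gate cells, and Naaa, at 0.241, lies left only where the Cd74-rich cells are counted or outside the gate.

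The lowest ratios belonged to Bex4 (0.0312, an X-linked gene), Xcr1 (0.0728), Sept3 (0.110), Aldh1a1 (0.212, a retinaldehyde dehydrogenase of stem cells), Adnp2 (0.214), Rtl8b (0.225), Naaa (0.241), Slc16a1 (0.250, a lactate transporter), Tnip3 (0.259) and Clec9a (0.269). Bex4 had 1 UMI in the KO-labelled gate and 24 in the WT gate, a ratio with an interval of 0.000759 to 0.191, and a ratio of 0.254 outside. Among male cells it had 0 and 24 UMIs. The Slc16a1 ratio was 1.01 in a gate of at least 2 Flt3 UMIs per 10000. Aldh1a1 stood at 8.26 and 39.0 CPM, with UMIs in 10 and 25 cells. Among male cells all 10 lowest genes stayed lower, 3 of them at least 2-fold, and all 10 highest stayed higher, 9 at least 2-fold. A sum of 0 among the 14 KO-labelled male cells was set to 3 counts and only bounds a fold.

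Xcr1 and Clec9a, receptors of type 1 conventional dendritic cells, were found mostly in Cd74-rich cells. Xcr1 had 7 UMIs in 3 KO-labelled cells and 72 UMIs in 11 WT cells, and Clec9a 15 UMIs in 7 KO-labelled and 49 UMIs in 16 WT cells of that kind. In Cd74-poor cells Xcr1 had no UMI and Clec9a 4 in each library. Cd209a, a lectin of monocyte-related and type 2 dendritic cells, went the other way, with 26 UMIs in 11 of 24 KO-labelled and 9 UMIs in 2 of 30 WT Cd74-rich cells. It was not confined to them, as the Cd74-poor cells held 49 Cd209a UMIs in 14 KO-labelled cells and 3 in 1 WT cell. A UMI of Xcr1 or Clec9a occurred in 8 KO-labelled and 17 WT cells, with 1 cell of each library also holding Cd209a. Naaa, Sept3 and Plbd1 were likewise lower per Cd74-rich cell, at 274, 21.1 and 506 CPM in KO-labelled cells against 827, 112 and 892 CPM in WT cells, while Ccl6 stood at 228 and 20.4 CPM. Ccr2, the receptor for monocyte exit from marrow, had 793 and 487 CPM, and Runx1 148 and 40.9 CPM in these cells. Among male gate cells Xcr1 had 0 UMIs in 14 KO-labelled and 55 UMIs in 72 WT cells, and Cd209a 17 and 3 UMIs.

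Genes of MHC class II were lower in the KO-labelled gate as a whole, 0 of 7 higher and 7 lower, beside 54.2% of all genes lower. Their median log2 ratio was -1.05. Cd74 stood at 1700.3 and 3522 CPM, H2-Ab1 at 625 and 1565 CPM, and H2-Eb1 at 329 and 835 CPM. The share of Cd74-rich cells moved with this difference, as it was 16.1% of KO-labelled and 30.6% of WT gate cells. In the Cd74-poor cells alone 5 of 6 members were higher and the median was 0.74. Those cells were set apart by Cd74 itself, so this is a description. Among male gate cells the median was -0.02.

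Dntt was lower in the KO-labelled gate. It had UMIs in 14 of 149 KO-labelled cells (9.40%, interval 5.23 to 15.3) and in 25 of 98 WT cells (25.5%, 17.2 to 35.3). After thinning the numbers were 9 of 148 (6.08%, 2.82 to 11.2) and 21 of 98 (21.4%, 13.8 to 30.9), and 0 of 1035 and 1 of 980 erythroid cells. Its level was 158 CPM in KO-labelled and 271 CPM in WT gate cells, a ratio of 0.585 (0.493 to 0.692), with the highest single cell holding 25.3% and 16.3% of the UMIs. At least 5 Dntt UMIs were found in 8 and 15 cells. The ratio was 0.557 in Cd74-poor cells, 0.406 outside the gate and 0.0397 (0.001 to 0.224) among male cells, where 14 KO-labelled cells held 1 Dntt UMI and 72 WT cells held 184.

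The rest of the lymphoid priming list did not move as 1 group. Of 20 members at 20 CPM, 5 were higher and 15 lower in the KO-labelled gate, beside 45.8% and 54.2% of all genes. At least 2-fold, 2 were higher and 0 lower, beside 1.91% and 2.10%. The list median was -0.16, beside -0.03 over all genes and -0.19 for the list outside the gate. The median was -0.11 among male cells and 0.11 with the gate widened to 1 Flt3 UMI. Gimap6, a GTPase of lymphoid cells, had a ratio of 2.23 and Ikzf2, a zinc finger factor, of 1.92. Ighm, the IgM heavy chain, stood at 128 and 186 CPM, a ratio of 0.691, and Mef2c, a factor of lymphoid commitment, at 232 and 311 CPM, a ratio of 0.745. Satb1, Sox4 and Tcf4 had ratios of 1.24, 0.996 and 0.987, each with 1 inside the interval. Of the B cell list, 2 members reached 20 CPM. Vpreb1 had 1.91 and 33.1 CPM, with 92.3% of the WT UMIs from 1 cell, and Cd79b 48.3 and 33.9 CPM.

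Of 19 multipotent progenitor genes, 13 were higher and 6 lower in the KO-labelled gate, 4 of them at least 2-fold higher, where 45.8% of all genes were higher and 1.91% at least 2-fold. Their median was 0.21 inside and 0.29 outside the gate, and 0.47 among male cells. Cd34 stood at 349 CPM in KO-labelled and 210 CPM in WT gate cells, a ratio of 1.66 (1.42 to 1.93), against 1.68 outside. Cd48 had a ratio of 1.84 (1.56 to 2.18) against 2.86 outside, Ctla2a, a protease inhibitor gene, 2.09 (1.91 to 2.28) against 1.45, and Ly6a 3.20 (2.26 to 4.64) against 1.36. In Cd74-poor cells 9 of 19 members were higher and the median was -0.02. There Cd34 had a ratio of 1.5, Cd48 of 2.75 and Ly6a of 3.07.

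Stem cell genes had the highest list median, 0.56 over 14 members, against 0.02 outside the gate. Of these members 11 were higher and 3 lower, beside 45.8% of all genes higher. Hlf stood at 177 CPM in KO-labelled and 119 CPM in WT gate cells, a ratio of 1.49 (1.21 to 1.84), whereas the ratio outside was 0.917. Txnip, a redox regulator of stem cells, had a ratio of 2.12, Sult1a1 of 2.07 and Gcnt2 of 1.92. Mecom, a transcription factor of long-term stem cells, went the other way, with 42.0 and 69.6 CPM and a ratio of 0.603 (0.429 to 0.844). The median was 0.29 in Cd74-poor cells, 0.13 with the gate widened to 1 Flt3 UMI and -0.07 among male cells.

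**Figure D5:**
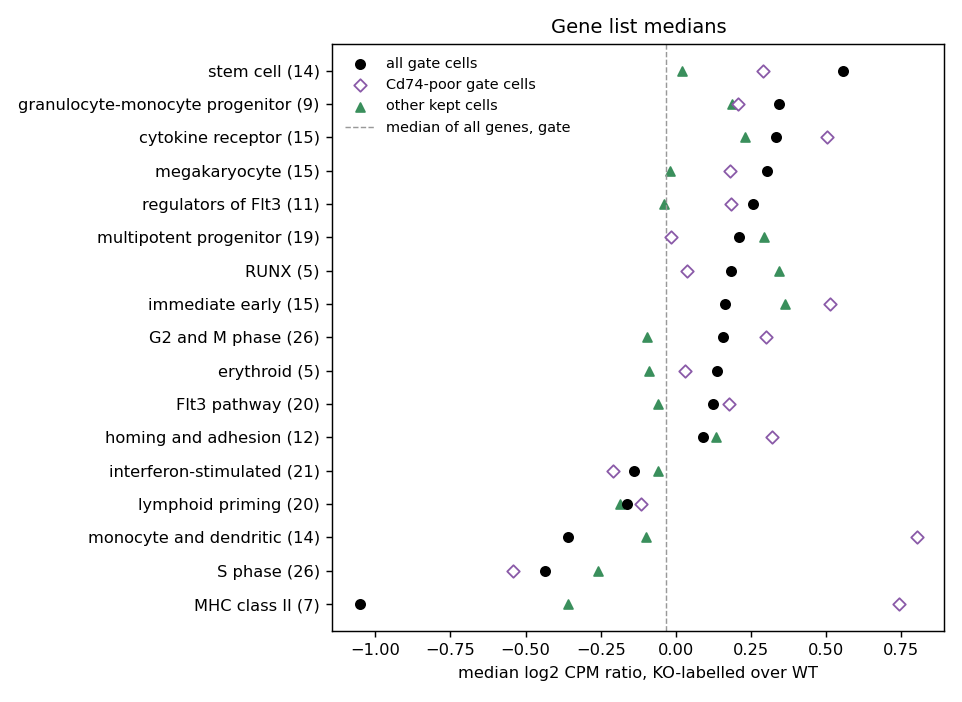
Median log2 CPM ratios of KO-labelled over WT are given for each gene list with at least 5 members at 20 CPM, in all gate cells (black), Cd74-poor gate cells (diamonds) and other kept cells (triangles), with the number of members in brackets. Stem cell genes lie highest, at 0.56, and MHC class II genes lowest, at -1.05, where the diamond lies at 0.74.

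Of 20 FLT3 signalling genes at 20 CPM besides Flt3, 13 were higher and 7 lower in the KO-labelled gate, beside 45.8% and 54.2% of all genes. Of these 20 genes 0 were 2-fold apart, beside 4.01% of all genes. Their median was 0.12 inside and -0.06 outside the gate, 0.01 with the gate widened to 1 Flt3 UMI, and -0.37 among male cells. Pim1, a kinase gene that STAT5 turns on, had the largest ratio, 1.92 (1.57 to 2.35), at 221 and 115 CPM, against 1.82 outside. Stat3 followed at 1.81 (1.32 to 2.51), with 1.13 outside. The adaptors Grb2 and Shc1 had 1.02 and 1.52, the phosphatases Ptpn11 and Inpp5d 0.973 and 1.13, Stat5a 1.34 and Akt1 1.10, and of these 6 each interval included 1. Of 11 regulators of Flt3, 6 were higher and 5 lower, with a median of 0.26, and of 0.11 among male cells. Gfi1b had a ratio of 2.72 (1.37 to 5.89) and Cebpa of 1.98 (1.05 to 3.96), whereas Ikzf1 had 0.807, with 1 inside the interval. The RUNX partners and relatives Runx2, Runx3 and Cbfb had 1.29, 1.14 and 0.943, all with 1 inside the interval.

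Cell cycle genes split by phase. In S phase, 25 of 26 list members had lower sums in the KO-labelled gate and 1 a higher one, beside 54.2% of all genes lower. The median was -0.44 inside and -0.26 outside the gate. Uhrf1, a maintenance factor of DNA methylation, stood at 38.1 and 98.4 CPM, a ratio of 0.387 (0.279 to 0.534), Hells at 55.3 and 103 CPM, and Clspn, a checkpoint adaptor, at 57.2 and 102 CPM. Of 26 G2 and M phase genes 24 were higher and 2 lower, 0 at 2-fold, beside 45.8% of all genes higher. Their median was 0.16 against -0.10 outside. Mki67 had 563 and 511 CPM and the centromere protein Cenpf 271 and 199 CPM, a ratio of 1.36. The S phase median was -0.54 in Cd74-poor cells and -0.26 among male cells. The G2 and M median was 0.30 and 0.42 there, but -0.10 with the gate widened to 1 Flt3 UMI.

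Megakaryocyte genes, low in the gate as a whole, had a median of 0.30 over 15 members. In the KO-labelled gate 11 were higher and 4 lower, beside 45.8% of all genes higher. Gp5, a platelet glycoprotein, had 69.3 and 20.4 CPM, a ratio of 3.40 (2.17 to 5.54), and Treml1, a platelet receptor, 37.5 and 14.4 CPM, a ratio of 2.60. Pf4 had 0.585 (0.493 to 0.693), with 46.3% of its KO-labelled UMIs in 1 cell. The list median was -0.23 with the gate widened to 1 Flt3 UMI and -0.42 among male cells.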

How the data were processed

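Single cells of 2 mouse libraries were measured, labelled RUNX1 KO and RUNX1 WT. The deposited files hold whole UMI counts for each gene and barcode. The authors used Cell Ranger 2.1.1 and mm10, as the submitters' processing notes say, whereas version 3.1.0 of the software stands in the file headers, and the labels' protocols a 3′ v2 kit. The KO-labelled library had 120578398 UMIs in 11398 barcodes and the WT library 113732196 UMIs in 9969 barcodes, and the small gate sums limit the precision.

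The gate, the gene lists and the comparisons were chosen with earlier results of these data known. Counts were summed over cells of a kind and scaled to 1000000 (CPM). A sum of 0 was set to 3 counts in ratios. Ratios have exact conditional binomial and shares Clopper-Pearson intervals at 95%. No test or p-value was made, since each genotype had 1 library. Genes at 20 CPM or more in either sum were counted when at least 2-fold apart. List counts cover members at 20 CPM, and medians need 5 of them. Flt3, Procr, Mpo, Elane and Ctsg were left out of these counts.

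Named genes were the 10 highest and 10 lowest of each comparison with a UMI in at least 10% of the cells where they were higher (ribosomal, mitochondrial, haemoglobin and unnamed genes, Xist, Tsix and 4 Y-linked genes left out, but not other X-linked genes), the Flt3 pathway, lymphoid and RUNX lists, the markers, and at most 4 genes from any further list. Genes given for Cd74-rich cells and list members beyond that rule were chosen after their values were seen. The symbols Lnk and Mx2 of the lists were not matched, and a few other members are not reported here.

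A cell counted as male with a UMI of Uty, Kdm5d, Eif2s3y or Ddx3y and none of Xist, and as female with 2 or more Xist UMIs and no UMI of those 4 genes. Erythroid cells used for comparison had at least 10 UMIs per 10000 of Klf1, Car1, Ermap, Aqp1 and Rhd together, and megakaryocyte cells of Gp1bb, Gp9, Gp6, Ppbp and Treml1. Doublets were not removed, and an alternative left out the 5% of cells with most UMIs. The ratio step was tested on simulated sums. TMM factors came from edgeR 4.0.16 in R 4.3.3. The other steps ran in Python 3.11.15 with scipy 1.17.1, numpy 2.4.6 and pandas 2.3.3.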

Additional observations from a re-analysis of the deposited data

Results flagged for a closer look

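Mycn and Car1 had opposite directions inside and outside the gate, with both counting intervals off 1, and the difference was not tested. Mycn, a transcription factor of stem cell growth, had a KO-labelled over WT ratio of 3.53 (1.54 to 9.46) in the gate, on 33 and 7 UMIs, and 0.763 (0.728 to 0.80) in the other kept cells. With the gate widened to 1 Flt3 UMI it was 0.999. Car1, an erythroid carbonic anhydrase, had a ratio of 1.94 (1.25 to 3.09) in the gate, on 75 and 29 UMIs, and 0.793 (0.783 to 0.803) outside. One cell held 41.3% of its KO-labelled and 31.0% of its WT gate UMIs, and its ratio was 1.22 in Cd74-poor cells.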

How the results depend on the processing

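No paired analysis was possible because each genotype had 1 library, and no replicate could be left out. The gate share was 0.297% of KO-labelled and 0.232% of WT kept cells with at least 3 raw Flt3 UMIs, 6.60% and 4.95% with at least 1, 1.12% and 0.771% with at least 2 per 10000, 1.95% and 1.45% with no limit on Mpo, Elane and Ctsg, and 2.72% and 1.74% after thinning to 3000 UMIs. Thinning applied to the Flt3 condition, with the other conditions at unthinned counts. Without Cd74-rich cells the WT share was 0.741%. The KO-labelled share was the larger in each of these settings where both are given.

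The number of genes at least 2-fold higher and lower in the KO-labelled gate was 774 and 558 with at least 3 Flt3 UMIs, 57 and 59 with at least 1, 303 and 359 with 2 per 10000, 80 and 84 with no limit on the granule genes, 185 and 201 in cells of 5000 to 20000 UMIs, 721 and 725 in male cells, 236 and 215 against a total without ribosomal protein and mitochondrial genes, 431 and 657 at a floor of 5 CPM, 689 and 1073 with no floor, and 408 and 528 at 1.5-fold. With at least 1000 genes and at most 5% mitochondrial UMIs 214 were higher. Cell numbers were 14 and 72 for male cells, 32 and 22 with 3 Flt3 UMIs, and 117 and 49 under the stricter cell filter. Genes at least 2-fold higher in the gate than in the other cells of both libraries numbered 59 with at least 1 Flt3 UMI, 254 with 2 per 10000, 103 after thinning, 83 without Cd74-rich cells, 361 at 5 CPM, 741 with no floor and 363 at 1.5-fold. Lower genes numbered 101 with at least 3 Flt3 UMIs, 21 with at least 1, 95 with 2 per 10000, 80 without ribosomal protein and mitochondrial totals, 125 at 5 CPM, 188 with no floor and 155 at 1.5-fold.

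Without Cd74-rich cells, a setting added after seeing the data, the MHC class II median was 0.74 and the ratios of Naaa, Cd74, Plbd1, Jaml, H2-Aa, H2-Eb1 and H2-Ab1 were 1.18, 1.90, 1.46, 1.26, 1.63, 1.72 and 1.76, in place of values under 1. The cells left out there are set apart by Cd74 itself, so the Cd74 ratio without them is no finding. Among male cells Batf3 had 1.0, H2-Aa 1.16 and Dusp1 0.487. Phc1 had 0.977 with at least 1 Flt3 UMI and 0.991 after thinning, Mycn 0.999 with at least 1, and Slc16a1 1.01 with 2 per 10000. Ifit1 had 5.53 under the stricter cell filter, 1.39 with at least 3 Flt3 UMIs and 1.06 after thinning, Rsad2 2.08 with at least 3 Flt3 UMIs and 2.18 after thinning, and Ifit2 3.12 with at least 3. The cause was not tested. Of 2114 gene ratios under an alternative, 206 lay on the other side of 1 from the reported ratio, namely the 20 given here, 98 that stayed inside the counting interval of the reported ratio, and 88 past it for genes less than 2-fold apart. Among the last, without Cd74-rich cells, Id2 had 14.6 in place of 0.585, on 22 and 1 UMIs, and Irf8 1.32 in place of 0.679.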

Other observations

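Other gene groups of the gate are given as values, beside 45.8% of all genes higher and 54.2% lower in the KO-labelled gate. Of 15 cytokine receptor genes at 20 CPM, 11 were higher and 4 lower in the KO-labelled gate, with a median log2 ratio of 0.33 inside, 0.23 outside it and 0.98 among male gate cells. Csf3r, the receptor of G-CSF, had 33.7 CPM in KO-labelled and 17.8 CPM in WT gate cells, and Tgfbr2, a TGF-beta receptor, 21.6 and 9.33 CPM, with 45.5% of the 11 WT UMIs in 1 cell. Of 12 homing and adhesion genes, 7 were higher and 5 lower, with a median of 0.09, and of 0.03 among male cells. The integrin gene Itgb7, of gut homing, was 6.09-fold higher in the gate than outside it in the KO-labelled library and 5.81-fold in the WT library, at 140 and 147 CPM. Klf2, a transcription factor of lymphocyte quiescence, was 6.03-fold and 9.91-fold higher than outside, at 66.7 and 73.0 CPM.

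Of 21 interferon-stimulated genes, 8 were higher and 13 lower in the KO-labelled gate, beside 45.8% and 54.2% of all genes. The median was -0.14, and -0.17 among male cells. The list counts that follow stand beside the same shares. Ifit1 had 8.26 and 33.1 CPM, with 69.2% of the WT UMIs in 1 cell, and Rsad2 7.63 and 28.0 CPM, with 66.7% in 1 cell. Of 15 immediate early genes, 9 were higher and 6 lower, with a median of 0.16, and of 0.13 among male cells. Dusp1 had a ratio of 2.07, and of 0.487 among male cells on 1 and 15 UMIs, Zfp36 of 2.01 and Egr1 of 0.475. The list of granulocyte and monocyte progenitors had 7 of 9 members higher and 2 lower, with a median of 0.34, and of 0.70 among male cells. Of 14 monocyte and dendritic genes, 5 were higher and 9 lower, with a median of -0.36, whereas in Cd74-poor cells 10 of 12 were higher and the median was 0.80, and among male cells the median was 0.21. Of 5 erythroid genes, 4 were higher and 1 lower, with a median of 0.14, of -0.12 with the gate widened to 1 Flt3 UMI and of -0.25 among male cells.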
